A study of Mus musculus with 9 samples.

Results

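Amacrine cells are the inhibitory interneurons of the inner retina. They take input from bipolar cells and from each other, and they shape what ganglion cells send to the brain. Most use GABA or glycine, and rarer kinds add acetylcholine or dopamine. A set of 30 genes was followed here that mark amacrine cells at large, their transmitters or their subtypes, and the genes were chosen by name, with earlier results of these data known, so their shares of called genes are a description and not an independent test. The table holds 1 entry for each of the 30 among 25108 genes and gene models, and 27 of the 30 were kept by the filter on low values, which asked for 0.5 FPKM or more in at least 3 libraries. FPKM is the number of sequenced fragments scaled to the length of the gene and to the number of mapped fragments in the library. Each of those 27 was at 0.5 FPKM or more in all 9 libraries, so none was kept through the high values of a single group. Ddc, Neurod6 and Ptf1a were below the filter.

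The tissue was whole retina of C57BL/6 mice at postnatal day 17. Wild-type mice that stayed in room air form the group RA WT, wild-type mice with oxygen-induced retinopathy form OIR WT, and mice with the IL-19 knockout and the same retinopathy form OIR KO, with 3 libraries each. In this model, pups breathe high oxygen, which halts and prunes retinal vessels, and the inner retina turns hypoxic when they return to room air. Room-air knockout mice were not analysed here, so the knockout was compared only within retinopathy. The kind of knockout, the oxygen exposure and the number of animals behind a library were not given in the sources used here, and p-values measure the spread between these libraries, which may be technical. Whole retina holds many cell types, and fewer amacrine cells and less RNA per amacrine cell cannot be told apart in it.

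Il19 itself gave no check of the genotype, with 0.0406 FPKM in RA WT 1 and a listed 0 in the other libraries, wild type included. Relative depth, estimated from the smallest steps of FPKM, came out between 0.853 and 1.14 of the mean. The step was searched for only within a preset range, so large differences in depth could not have shown. Only 17.9 to 36.9% of low values per library lay near a whole step, and absolute depth is unknown. The lens crystallin gene Cryaa was highest in RA WT 1 (11.6 FPKM) and OIR KO 2 (7.68 FPKM). RA WT 2 and OIR KO 1 listed the Y-linked gene Ddx3y at 0. RA WT 3 had 6.80 FPKM of it, and the remaining libraries had 12.9 to 15.7 FPKM. Values below are in FPKM, in the order of replicates 1, 2 and 3. A log2 change is the difference of group means of log2(FPKM + 0.5), given with its standard error (SE), and at low FPKM it is smaller than the true log ratio. A gene is called when its p from the linear model of limma, with Benjamini-Hochberg adjustment over all 15678 tested genes, is under 0.05.

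Of the 27 tested amacrine genes, 12 fell and 0 rose in OIR WT against RA WT. That is 44.4% called lower, where 7.92% of all tested genes were called lower and 8.04% higher. The median log2 change of the 27 was -0.38, beside 0.02 over all tested genes. In 20 of the 27 every OIR WT library was below every RA WT library, which held for 17.2% of all tested genes. The 12 fallen genes came from 7 of 8 roles: GABA synthesis (Gad1), glycine uptake (Slc6a9), broad transcription factors (Tfap2c and Pax6), acetylcholine (Slc18a3), dopamine (Th), the AII and calcium-binding group (Calb2, Pvalb, Dab1 and Gjd2) and 2 subtype genes (Ppp1r17 and Slc17a8). Library by library, the median deviation of the 27 genes from the RA WT mean was -0.39, -0.32 and -0.51 in OIR WT and -0.38, -0.67 and -0.31 in OIR KO, with OIR KO 2 the lowest of the 9 libraries.

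The calls differ in how far they depend on single libraries. Gad1, Slc6a9, Slc18a3 and Ppp1r17 stayed called in OIR WT against RA WT whichever 1 of the 6 libraries was left out. The other 8 each lost the call without at least 1 library, as given with each gene. Adding a Y-linked expression term to the fit also ended the calls of Th, Dab1, Gjd2 and Slc17a8 (limma adjusted p = 0.0595, 0.0578, 0.0529 and 0.0669). The number of fallen amacrine genes was 4 without OIR WT 1, 6 without RA WT 2, and between 8 and 11 without any other 1 of the 6 libraries.

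**Figure D1:**
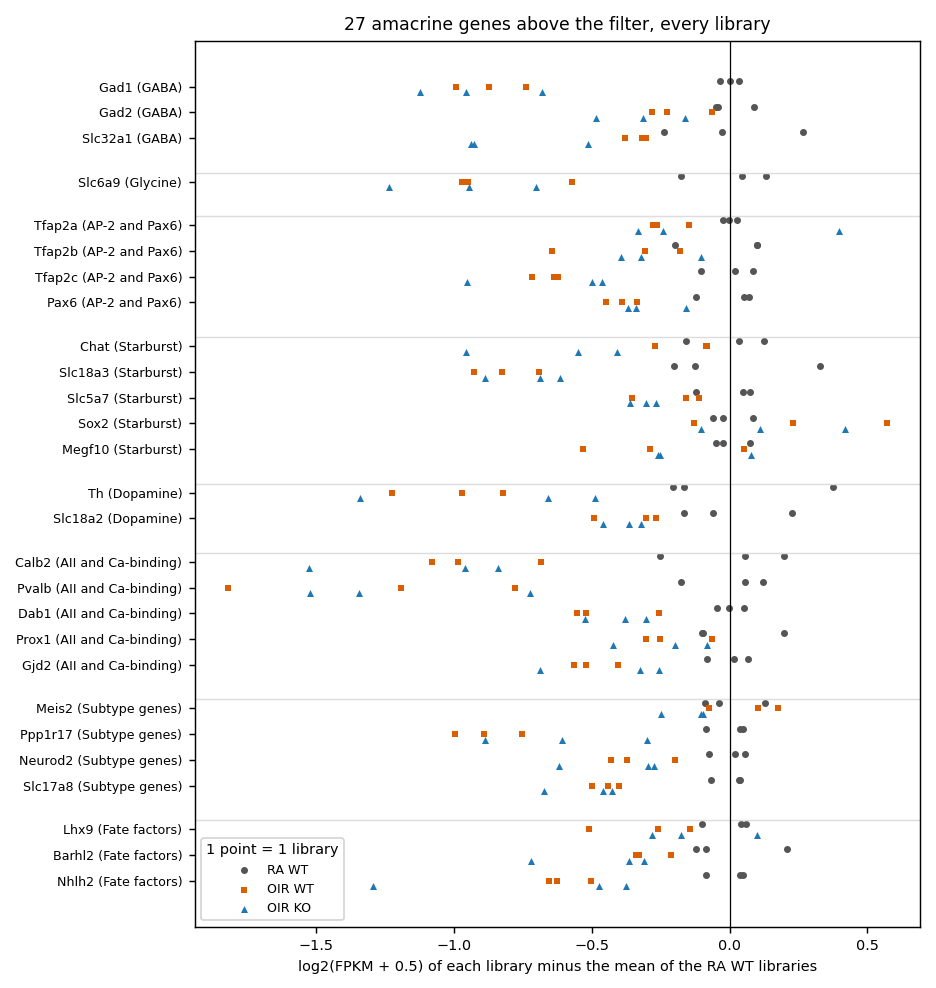
Each library's log2(FPKM + 0.5) minus the mean of the RA WT libraries (horizontal axis, log2 units) for the 27 tested amacrine genes (rows, grouped by role), with 1 point per library. In 20 of the rows all 3 OIR WT points (squares) lie left of all 3 RA WT points (circles).

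Among 3 GABA genes, the synthesis gene Gad1 fell, and its paralog Gad2 and the transporter gene Slc32a1 did not pass in OIR WT. Gad1 encodes the larger form of glutamate decarboxylase, which makes GABA throughout the cell (ENSMUSG00000070880, GRCm38 chromosome 2, 70553072 to 70602014, plus strand). It was at 81.8, 83.6 and 79.7 FPKM in RA WT, 40.8, 48.7 and 44.4 in OIR WT, and 41.8, 37.2 and 50.8 in OIR KO. The groups with retinopathy overlapped each other and lay far below the room-air values. The mean was 81.7 ± 1.95 FPKM (SD, n = 3) in RA WT and 44.6 ± 3.96 in OIR WT, or 54.6% of it, a log2 change of -0.87 (SE 0.12, limma adjusted p = 0.00276). Gad2, the smaller form bound to synaptic vesicles (chromosome 2, 22622205 to 22693874, plus strand), was at 8.47, 7.65 and 7.69 FPKM in RA WT, 6.43, 7.56 and 6.70 in OIR WT, and 6.28, 5.52 and 7.03 in OIR KO. Its OIR WT values were just below the RA WT values, with a log2 change of -0.19 (95% interval -0.44 to 0.06, limma adjusted p = 0.287).

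Slc32a1 encodes the vesicular transporter that loads both GABA and glycine (chromosome 2, 158610767 to 158615748, plus strand). It was at 43.7, 37.6 and 53.6 FPKM in RA WT, 34.1, 35.6 and 35.9 in OIR WT, and 23.1, 23.0 and 31.0 in OIR KO. Here the 3 groups were in separate ranges, with OIR KO the lowest. OIR WT against RA WT did not pass (log2 -0.33, SE 0.15, limma adjusted p = 0.154), and OIR KO against RA WT was called lower (log2 -0.79, adjusted p = 0.0108), at 57.2% of the room-air mean, a call lost without both Cryaa-high libraries (adjusted p = 0.0738). OIR KO against OIR WT had a log2 change of -0.46 (95% interval -0.78 to -0.13), which did not pass after adjustment (limma adjusted p = 0.36).

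The glycine transporter gene Slc6a9 fell. It encodes GlyT1, the transporter by which glycinergic amacrine cells gather glycine (ENSMUSG00000028542, chromosome 4, 117834506 to 117875198, plus strand). It was at 57.5, 49.3 and 61.1 FPKM in RA WT, 28.6, 37.3 and 28.1 in OIR WT, and 28.7, 23.4 and 34.0 in OIR KO. Every library with retinopathy was below every room-air library. The log2 change was -0.83 in OIR WT (SE 0.16, limma adjusted p = 0.00832) and -0.96 in OIR KO (adjusted p = 0.00675), both against RA WT. Exons of Slc6a9 share 1429 bases with exons of Ccdc24, a gene on the opposite strand, and reads of the 2 cannot be told apart without strand. Ccdc24 was at 99.4 ± 8.36 FPKM in RA WT and 72.9 ± 13.4 in OIR WT (SD, n = 3), a log2 change of -0.46 that did not pass (limma adjusted p = 0.0507), and its part in the Slc6a9 values was not tested.

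Of 5 genes of starburst amacrine cells, which compute the direction of motion with acetylcholine and GABA, 1 fell in OIR WT (Slc18a3) and 2 in OIR KO (Slc18a3 and Chat), both against RA WT. Slc18a3, the vesicular acetylcholine transporter (ENSMUSG00000100241, chromosome 14, 32462438 to 32464850, minus strand), was at 6.19, 5.84 and 8.64 FPKM in RA WT, 3.33, 3.61 and 4.01 in OIR WT, and 4.02, 3.44 and 4.26 in OIR KO. All 6 libraries with retinopathy were below the 3 of room air. It fell by 0.82 on the log2 scale in OIR WT (SE 0.16, limma adjusted p = 0.0089) and by 0.73 in OIR KO (adjusted p = 0.0184). Leaving out RA WT 3 (adjusted p = 0.0505), or OIR KO 1 or 2 (0.054 and 0.0652), ended the call in OIR KO.

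Chat makes acetylcholine (ENSMUSG00000021919, chromosome 14, 32408203 to 32465989, minus strand), and Slc18a3 lies inside its span on the same strand, with 0 exon bases in common. Chat was at 4.12, 3.54 and 4.41 FPKM in RA WT, 3.75, 3.23 and 3.76 in OIR WT, and 2.58, 1.82 and 2.9 in OIR KO. OIR WT overlapped RA WT (log2 -0.15, 95% interval -0.50 to 0.21, limma adjusted p = 0.576), and the OIR KO libraries were below all others. OIR KO was called lower than RA WT (log2 -0.64, SE 0.16, limma adjusted p = 0.0336), and leaving out RA WT 1 or 3 (0.0785 and 0.109), or OIR KO 1 or 2 (0.0739 and 0.0955), ended that call. Against OIR WT it did not pass (log2 -0.49, 95% interval -0.85 to -0.14, limma adjusted p = 0.371).

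The remaining 3 starburst genes did not pass in either comparison with RA WT. Slc5a7, the choline transporter that feeds acetylcholine synthesis, ranged over 1.91 to 2.26 FPKM in RA WT, 1.55 to 1.93 in OIR WT and 1.54 to 1.68 in OIR KO. Sox2, a transcription factor that starburst cells share with Müller glia, was at 15.1, 16.3 and 14.7 FPKM in RA WT, 18.1, 14.0 and 23.1 in OIR WT, and 16.6, 20.7 and 14.3 in OIR KO. It was 1 of only 2 tested amacrine genes with a log2 change above 0 in OIR WT (0.22, limma adjusted p = 0.435). Megf10, a receptor that spaces starburst cells and is also made by horizontal cells, had a log2 change of -0.26 (limma adjusted p = 0.317).

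**Figure D2:**
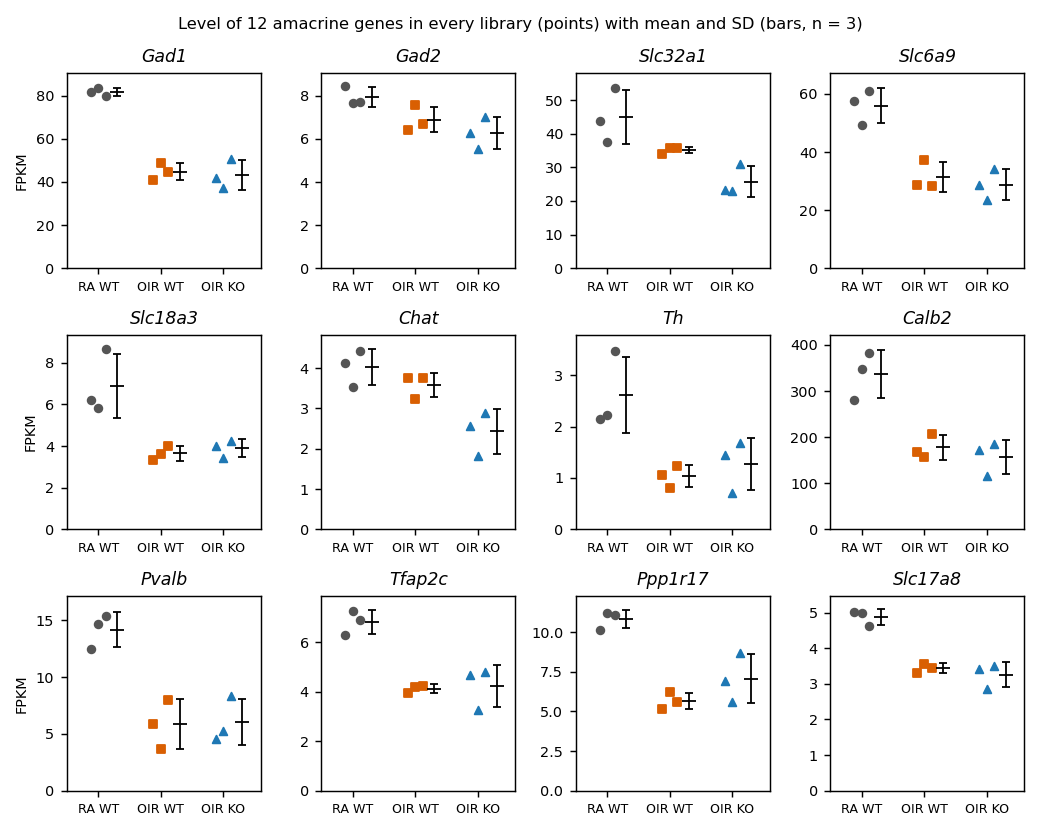
FPKM (vertical axis, from 0) of 12 amacrine genes in each library of RA WT, OIR WT and OIR KO, as points, with bars for the mean and SD of 3 libraries beside them. Gad1, Slc6a9, Slc18a3 and Calb2 are low in both groups with retinopathy, while Chat overlaps between RA WT and OIR WT and is lowest in OIR KO.

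Partners within a transmitter system were also compared as ratios of FPKM within a library, chosen after the values were seen. None of these ratios could pass, because the test cannot give a p under 0.1 with 3 against 3 libraries. Gad1/Gad2 was 9.65, 10.9 and 10.4 in RA WT, 6.34, 6.44 and 6.62 in OIR WT, and 6.66, 6.74 and 7.23 in OIR KO. The room-air ratios were thus all above those of retinopathy. Slc18a3/Chat was 1.5, 1.65 and 1.96 in RA WT, 0.888, 1.12 and 1.07 in OIR WT, and 1.56, 1.89 and 1.47 in OIR KO. Here OIR WT lay below the other 2 groups, which overlapped. Gad1/Slc32a1 was 1.87, 2.22 and 1.49 in RA WT, 1.2, 1.37 and 1.24 in OIR WT, and 1.81, 1.62 and 1.64 in OIR KO, again with OIR WT the lowest. For these 3 ratios the exact two-sided permutation p of OIR WT against RA WT was 0.1, the smallest 3 against 3 libraries allow, and 0.164 after Benjamini-Hochberg adjustment over the 18 tests of 6 ratios. OIR KO against OIR WT gave the same p for each of the 3 (exact permutation p = 0.1, adjusted 0.164).

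**Figure D3:**
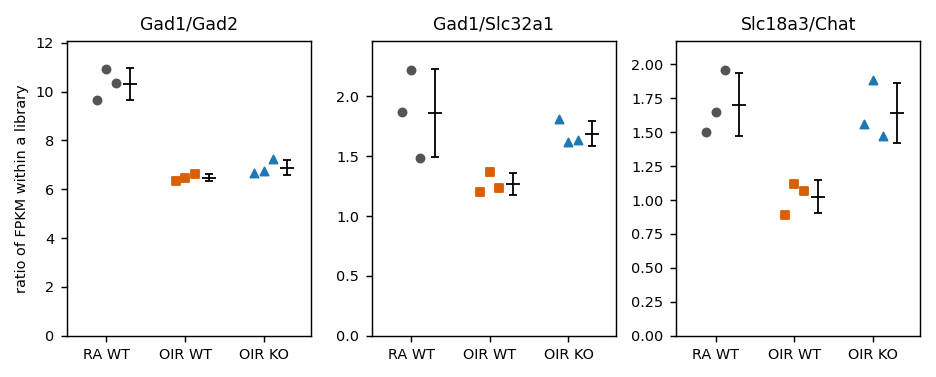
Ratio of FPKM of 2 genes within each library (vertical axis, from 0, no unit), with points for libraries and bars for the mean and SD of 3 libraries. Gad1/Gad2 is high in RA WT only, while Gad1/Slc32a1 and Slc18a3/Chat are lowest in OIR WT.

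The promoters of Gad1 and Gad2 and of Slc18a3 and Chat are shown because each pair serves a single transmitter. They are from RefSeq, build GRCm38.p6, from 250 bases before to 50 bases after the start, written 5′ to 3′ on the strand of the gene. Capitals mark matches to the AP-2 motif GCCNNNGGC, searched on both strands, since Tfap2a, Tfap2b and Tfap2c encode AP-2 factors. Gad1 is at chr2:70561879-70562178 (plus strand), Gad2 at chr2:22622077-22622376 (plus strand), Slc18a3 at chr14:32464801-32465100 (minus strand) and Chat at chr14:32465860-32466159 (minus strand).
Gad1: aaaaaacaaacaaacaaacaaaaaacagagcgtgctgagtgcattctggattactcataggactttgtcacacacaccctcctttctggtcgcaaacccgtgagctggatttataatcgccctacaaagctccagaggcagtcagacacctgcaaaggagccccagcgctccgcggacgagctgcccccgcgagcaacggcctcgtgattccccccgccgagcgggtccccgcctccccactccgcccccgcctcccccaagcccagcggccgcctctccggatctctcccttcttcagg
Gad2: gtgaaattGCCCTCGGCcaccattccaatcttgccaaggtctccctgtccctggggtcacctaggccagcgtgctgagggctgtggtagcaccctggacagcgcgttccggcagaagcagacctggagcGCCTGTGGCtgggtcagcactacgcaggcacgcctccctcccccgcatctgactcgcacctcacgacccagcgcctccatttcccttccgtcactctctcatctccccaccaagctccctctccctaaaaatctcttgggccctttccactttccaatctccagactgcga
Slc18a3: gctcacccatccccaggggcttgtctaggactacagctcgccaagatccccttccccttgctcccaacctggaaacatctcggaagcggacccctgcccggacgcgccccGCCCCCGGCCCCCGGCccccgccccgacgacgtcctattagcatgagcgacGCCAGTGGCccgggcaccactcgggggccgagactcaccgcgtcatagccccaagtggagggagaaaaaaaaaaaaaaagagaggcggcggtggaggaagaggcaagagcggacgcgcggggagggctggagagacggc
Chat: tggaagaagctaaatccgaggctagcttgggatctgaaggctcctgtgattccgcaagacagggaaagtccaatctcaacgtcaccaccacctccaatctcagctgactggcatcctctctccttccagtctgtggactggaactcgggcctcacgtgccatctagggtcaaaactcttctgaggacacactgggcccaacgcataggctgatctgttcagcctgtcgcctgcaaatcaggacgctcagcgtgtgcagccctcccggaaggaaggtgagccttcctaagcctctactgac

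Gad2 held 2 matches and Slc18a3 held 3, of which the first pair overlap, while the windows of Gad1 and Chat held 0. Promoters were found for 26 of the 30 genes, and 5 of those 26 (19.2%) held the motif, beside 16.6% of all 32851 RefSeq promoter windows of 300 bases. The letters ACGTG, the core of the hypoxia response element, were in 3 of the 26 (11.5%), Chat, Neurod2 and Barhl2, beside 19.6% of all windows. Both shares describe letters in a window and not binding.

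Dopaminergic amacrine cells are few, and their genes were at low levels. Th encodes tyrosine hydroxylase, the rate-limiting enzyme of dopamine synthesis (ENSMUSG00000000214, chromosome 7, 142892752 to 142931128, minus strand). It was at 2.15, 2.23 and 3.47 FPKM in RA WT, 1.06, 0.808 and 1.23 in OIR WT, and 1.44, 0.708 and 1.68 in OIR KO. All libraries with retinopathy were below those of room air, and the OIR WT mean was 39.5% of the RA WT mean, the lowest share among the 27 tested genes. The log2 change was -1.01 (SE 0.25, limma adjusted p = 0.0228), and leaving out RA WT 3 (0.0822), or OIR WT 1 or 2 (0.0693 and 0.0632), ended the call. In OIR KO the change against RA WT was -0.83 and did not pass (limma adjusted p = 0.0595), except without OIR KO 3 (adjusted p = 0.0384) and with a replicate block (adjusted p = 0.0351).

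The other genes of the dopamine group did not pass. Slc18a2, the vesicular monoamine transporter, was at 2.22, 3.07 and 2.42 FPKM in RA WT and 1.67, 1.98 and 2.04 in OIR WT, without overlap (log2 -0.35, limma adjusted p = 0.125). Ddc, the decarboxylase that turns L-DOPA into dopamine, was below the filter at 0.420, 0.495 and 0.148 FPKM in RA WT, 0.125, 0.104 and 0.123 in OIR WT, and 0.0613, 0.203 and 0.121 in OIR KO. The Ddc groups RA WT and OIR WT did not overlap, and the exact two-sided permutation test gave p = 0.1, the smallest that 3 against 3 libraries can give.

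Genes of calcium-binding proteins and of AII cells, the glycinergic amacrine cells of the rod pathway, fell in 4 of 5 cases. Calb2, calretinin, which many amacrine cells and some ganglion cells hold, had the highest level of the set (ENSMUSG00000003657, chromosome 8, 110137502 to 110168210, minus strand). It was at 280, 347 and 383 FPKM in RA WT, 168, 158 and 207 in OIR WT, and 171, 116 and 186 in OIR KO. The groups with retinopathy did not reach the room-air range. The log2 change was -0.92 in OIR WT (SE 0.19, limma adjusted p = 0.0129) and -1.11 in OIR KO (adjusted p = 0.00883), and leaving out RA WT 3 (0.0516) or OIR WT 1 (0.0525) ended the call in OIR WT.

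Pvalb, parvalbumin, another calcium-binding protein, found in amacrine and ganglion cells, had the largest log2 change of the set (chromosome 15, 78191114 to 78206400, minus strand). It was at 12.4, 14.7 and 15.4 FPKM in RA WT, 5.89, 3.63 and 8.01 in OIR WT, and 4.58, 5.25 and 8.34 in OIR KO. The spread within each group with retinopathy was wide, yet none of those values reached room air. The log2 change was -1.27 in OIR WT (SE 0.27, limma adjusted p = 0.0162), a call that ended without RA WT 2 or 3 (0.055 and 0.06) or OIR WT 1 (0.0538). In OIR KO it was -1.2 (adjusted p = 0.0266), lost without any 1 of the 6 libraries but OIR KO 3 (0.0517 to 0.0939).

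Gjd2 encodes the gap junction protein that couples AII cells to each other and to cone bipolar cells. It was at 51.0, 54.6 and 56.6 FPKM in RA WT, 36.4, 40.7 and 37.4 in OIR WT, and 45.1, 33.4 and 43.0 in OIR KO, with both groups below room air. Its log2 change in OIR WT was -0.50 (SE 0.12, limma adjusted p = 0.019), and it missed the threshold without RA WT 2 or 3 (0.056 and 0.0625) or OIR WT 1 or 3 (0.0765 and 0.0617). In OIR KO it was -0.42 (adjusted p = 0.0452), a call lost without any 1 of the 6 libraries (0.0511 to 0.128). Dab1, an adaptor of Reelin signalling that labels AII cells, was at 12.2, 12.6 and 11.8 FPKM in RA WT and 8.14, 10.1 and 8.35 in OIR WT. It fell by 0.44 on the log2 scale (SE 0.11, limma adjusted p = 0.0216), and it missed the threshold without RA WT 2 (0.0668), without OIR WT 1 or 3 (0.09 and 0.0761) and with a replicate block (0.0531). In OIR KO the Dab1 change was -0.40 (adjusted p = 0.0407), lost without any 1 of the 6 but OIR KO 3 (0.0814 to 0.137). Prox1, a transcription factor of AII and horizontal cells, was at 26.1 ± 3.27 FPKM in RA WT and 22.4 ± 2.07 in OIR WT (SD, n = 3), overlapping (log2 -0.21, limma adjusted p = 0.281).

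Of 4 broad transcription factors of amacrine cells, 2 fell in OIR WT, Tfap2c and Pax6. Tfap2a, Tfap2b and Tfap2c encode AP-2 factors, and Pax6 the homeodomain factor shared by amacrine, horizontal and ganglion cells and Müller glia. Tfap2c was at 6.29, 7.24 and 6.89 FPKM in RA WT, 3.93, 4.19 and 4.24 in OIR WT, and 4.66, 3.26 and 4.79 in OIR KO, with no library of retinopathy in the room-air range. Its log2 change was -0.66 in OIR WT (SE 0.14, limma adjusted p = 0.0141), which ended without RA WT 2 (0.0505) or OIR WT 1 (0.0588). In OIR KO it was -0.64 (adjusted p = 0.0211), which ended without RA WT 2 or 3 (0.0625 and 0.0693) or OIR KO 2 (0.0502). Pax6 was at 97.9, 99.1 and 86.8 FPKM in RA WT and 71.9, 74.7 and 69.0 in OIR WT, a log2 change of -0.39 (SE 0.09, limma adjusted p = 0.0186). The Pax6 call ended without RA WT 2 (0.0602), and without OIR WT 1 or 3 (0.0691 and 0.0686).

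The related AP-2 genes did not pass. Tfap2a was at 12.4, 12.6 and 12.8 FPKM in RA WT, 10.3, 10.4 and 11.3 in OIR WT, and 9.90, 10.6 and 16.7 in OIR KO, where OIR KO 3 was above all others. Tfap2b was at 38.0, 30.8 and 38.0 FPKM in RA WT and 28.6, 31.2 and 22.5 in OIR WT, which overlapped (log2 -0.38, SE 0.14, limma adjusted p = 0.0955). In OIR KO, 1 of these 4 factors was called lower than RA WT, Tfap2c, and Pax6 was not (log2 -0.29, limma adjusted p = 0.0692), except without OIR KO 3 (adjusted p = 0.0481).

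Of 4 tested subtype genes, 2 fell. Ppp1r17, a phosphatase inhibitor that marks amacrine cells with neither GABA nor glycine (ENSMUSG00000002930, chromosome 6, 56017497 to 56032689, plus strand), was at 10.2, 11.2 and 11.1 FPKM in RA WT, 5.16, 6.21 and 5.59 in OIR WT, and 6.91, 5.61 and 8.69 in OIR KO. Both groups with retinopathy were below room air. The log2 change was -0.88 in OIR WT (SE 0.15, limma adjusted p = 0.0051) and -0.60 in OIR KO (adjusted p = 0.0299), and the latter call was lost without any 1 of the 6 libraries but OIR KO 3 (0.0528 to 0.0923). Slc17a8 encodes vGlut3, the vesicular glutamate transporter of a glutamate-releasing amacrine type. It was at 5.01, 5.0 and 4.62 FPKM in RA WT, 3.30, 3.56 and 3.46 in OIR WT, and 3.41, 2.87 and 3.50 in OIR KO. Its log2 change was -0.45 in OIR WT (SE 0.11, limma adjusted p = 0.0258), and it missed the threshold without RA WT 1 or 2 (0.0608 and 0.0733), without OIR WT 1 or 3 (0.0975 and 0.0725) and with a replicate block (0.0627). In OIR KO the Slc17a8 change was -0.52 (adjusted p = 0.0198), and it missed the threshold without RA WT 1 or 2 (0.052 and 0.0549) or OIR KO 1 or 2 (0.0539 and 0.0702).

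Meis2 and Neurod2 did not pass. Meis2, a homeodomain factor of GABAergic amacrine cells, was at 33.7, 29.97 and 28.9 FPKM in RA WT, 29.2, 33.1 and 34.9 in OIR WT, and 25.9, 28.8 and 28.6 in OIR KO, so that OIR KO lay below the other groups by a small margin. Neurod2, a bHLH factor, was at 6.16, 5.74 and 6.33 FPKM in RA WT and 4.57, 5.23 and 4.37 in OIR WT, without overlap (log2 -0.33, limma adjusted p = 0.102). Neurod6, its relative in cells with neither transmitter, stayed below the filter at 0.409, 0.665 and 0.391 FPKM in RA WT, 0.447, 0.141 and 0.358 in OIR WT, and 0.370, 0.295 and 0.483 in OIR KO, and these ranges overlapped.

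Among 4 factors of amacrine fate or of single subtypes, none of the 3 tested was called in any comparison. OIR WT lay below RA WT without overlap in all 3, which held for 17.2% of all tested genes. Nhlh2, a bHLH factor, was at 17.5, 15.9 and 17.3 FPKM in RA WT, 11.8, 10.5 and 10.8 in OIR WT, and 12.9, 6.59 and 12 in OIR KO. Its log2 change of -0.59 in OIR WT (SE 0.20, limma adjusted p = 0.0792) passed when the fit held only the 6 libraries compared (adjusted p = 0.00586) and without both Cryaa-high libraries (adjusted p = 0.00959). In OIR KO its change of -0.71 (adjusted p = 0.0551) passed without OIR KO 1, OIR KO 2 or OIR KO 3 (0.0443 to 0.0462) and with a replicate block (0.0498). Barhl2, a homeodomain factor of amacrine and ganglion cell fate, ranged over 7.64 to 9.74 FPKM in RA WT and 6.51 to 7.16 in OIR WT (log2 -0.29, limma adjusted p = 0.179). Lhx9, a LIM factor needed for a subtype that makes nitric oxide, ranged over 2.61 to 2.97 and 1.83 to 2.51 FPKM (log2 -0.31, limma adjusted p = 0.198). Ptf1a, which starts amacrine and horizontal fate in the embryo, did not exceed 0.200 FPKM and was listed at 0 in RA WT 3, OIR WT 2, OIR WT 3, OIR KO 2 and OIR KO 3.

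Whether the knockout alters these genes in retinopathy was asked with OIR KO against OIR WT. None of the 27 tested amacrine genes was called by limma, and 0.134% of all tested genes were called in either direction. At an unadjusted limma p under 0.05 there were 3 of the 27, beside 1554 of all 15678 tested genes. The median log2 change was -0.03, beside 0.00 over all tested genes. OIR KO lay below OIR WT without overlap for 3 of the 27, Slc32a1, Chat and Meis2, where 7.98% of all tested genes did so. The 95% intervals of single genes reached down to -0.78 for Slc32a1 and -0.85 for Chat. They reached up to 0.61 for Ppp1r17, 0.69 for Pvalb and 0.73 for Th. Changes of these sizes are thus not excluded for those genes. Before any adjustment the intervals of Slc32a1, Chat and Meis2 leave out 0, that of Meis2 only just (-0.43 to -0.001).

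**Figure D4:**
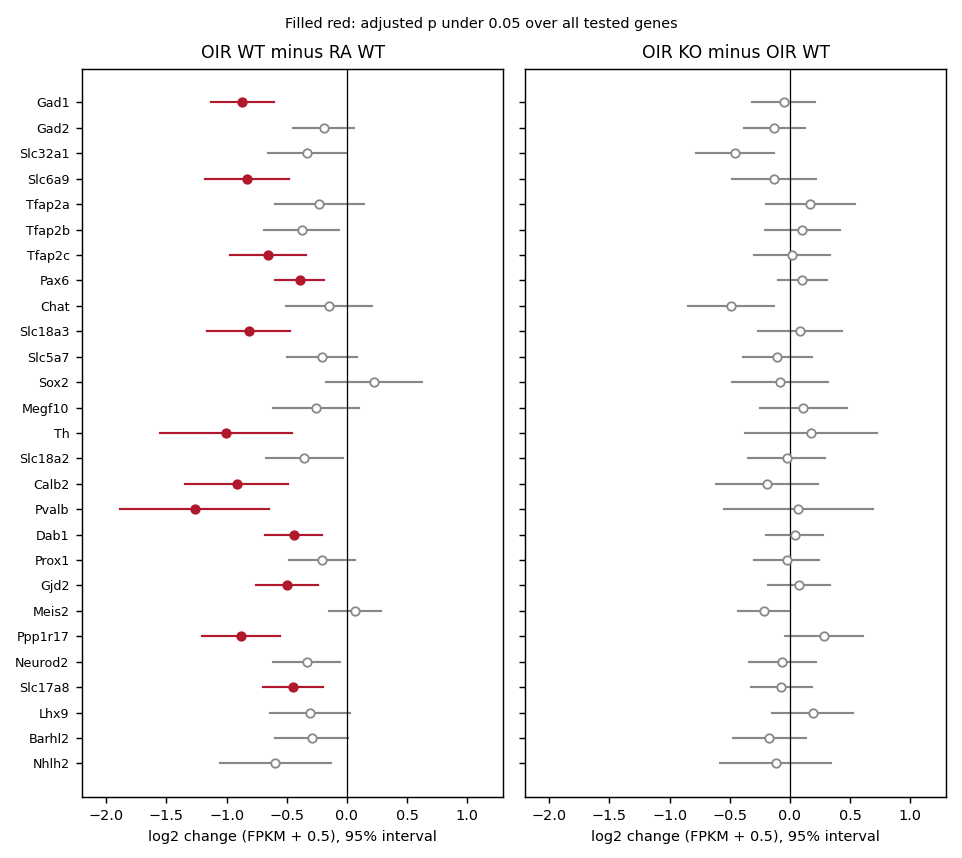
Log2 change with its 95% interval (horizontal axis, log2 units) for the 27 tested amacrine genes, OIR WT minus RA WT on the left and OIR KO minus OIR WT on the right. Filled red points are called. There are 12 on the left, all below 0, and 0 on the right.

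OIR KO against RA WT shares its control libraries with the first comparison, so its values stand beside the earlier ones and are no repeat of them. In it 12 of the 27 tested genes fell and 0 rose, 44.4%, where 5.69% of all tested genes were called lower and 4.75% higher. The median log2 change was -0.42, beside 0.02 over all tested genes. In 21 of the 27, OIR KO lay below RA WT without overlap, which held for 15.4% of all tested genes. Called here were Gad1, Slc32a1, Slc6a9, Tfap2c, Chat, Slc18a3, Calb2, Pvalb, Dab1, Gjd2, Ppp1r17 and Slc17a8. The count was 5 or 6 without any 1 of the 6 libraries other than OIR KO 3, and 14 without OIR KO 3. It was 3 (Gad1, Slc6a9 and Calb2) without both libraries of high Cryaa, RA WT 1 and OIR KO 2, and 0 without both libraries that listed Y-linked genes at 0, RA WT 2 and OIR KO 1. Either choice leaves 2 libraries in each of these groups. A fit of only the 6 libraries compared ended the calls of Chat, Dab1, Gjd2, Ppp1r17 and Slc17a8 (limma adjusted p of 0.0506 to 0.0847), and a replicate block those of Dab1, Gjd2, Ppp1r17 and Slc17a8 (0.0521 to 0.089).

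Further genes of each transmitter system were taken from lists that share no gene with the 30. These lists and those below were also chosen with earlier results of these data known, so their counts are a description. Beside them, 7.92% of all tested genes were called lower and 8.04% higher in OIR WT against RA WT. Genes of GABA uptake and breakdown fell in 5 of 6 cases in OIR WT against RA WT, with a median log2 change of -0.70. The GABA transporter genes Slc6a12 and Slc6a11 fell from 3.37 ± 0.558 to 1.43 ± 0.261 FPKM (SD, n = 3; log2 -1.0) and from 77.3 ± 12.1 to 39.0 ± 2.26 FPKM (log2 -0.97), and the GABA transaminase gene Abat from 31.3 ± 1.94 to 19.3 ± 1.26 FPKM (log2 -0.69). Müller glia also take up and break down GABA. Glycine handling genes were called in 0 of 6 cases (median -0.11). Other cholinergic genes fell in 2 of 6 tested, Bche, a cholinesterase, and the transcription factor gene Fezf1, the latter from 1.3 ± 0.123 to 0.782 ± 0.114 FPKM (SD, n = 3). Bche was at 0.751, 0.710 and 0.492 FPKM in RA WT and 0.151, 0.151 and 0.146 in OIR WT, and it was kept by the filter only through RA WT and OIR KO libraries, so its call is no support for the list. Of 7 tested genes of catecholamine handling 1 fell, Qdpr, which recycles the cofactor of tyrosine hydroxylase (log2 -0.43, limma adjusted p = 0.0337). In OIR KO against OIR WT none of these genes was called by limma. OIR KO lay above OIR WT without overlap in 3 of 6 genes of GABA uptake and breakdown, beside 1525 of all 15678 tested genes. The same held for 1 of 6 glycine handling genes, 2 of 6 other cholinergic genes and 1 of 7 catecholamine genes. No tested gene of these lists was lower without overlap.

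Other transcription factors of amacrine cells fell in 4 of 18 tested and rose in 1, beside 7.92% and 8.04% of all tested genes. Their median log2 change was -0.08. Ebf3 and Ebf1, factors of amacrine subtypes that ganglion cells also hold, fell from 8.11 ± 0.831 to 5.70 ± 0.376 FPKM (SD, n = 3; log2 -0.47) and from 4.18 ± 0.309 to 2.95 ± 0.205 FPKM (log2 -0.44). The risen gene was Neurod1, which photoreceptors also express, from 183 ± 31.4 to 272 ± 15 FPKM (log2 0.58, limma adjusted p = 0.0217). Of 15 other amacrine markers 6 fell and 0 rose (median -0.45). They were led by the neuropeptide gene Cck, from 23.3 ± 1.91 to 5.61 ± 0.861 FPKM (log2 -1.97, SE 0.14, limma adjusted p = 0.000151), by Kcnip4 (log2 -1.24) and by Dner (log2 -0.81).

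Markers of several other retinal cells were low in the same libraries. Counts here are for OIR WT against RA WT, where 7.92% of all tested genes were called lower and 8.04% higher. Retinal ganglion cell markers fell in 8 of 13 cases (median -0.74), and their summed level was 615 to 731 FPKM in RA WT, 391 to 443 in OIR WT and 274 to 407 in OIR KO. None of the 13 was listed at 0 in any library, and OIR KO 2 was the lowest library in this sum, as it was for the amacrine genes. Bipolar markers fell in 7 of 12 cases (median -0.50), horizontal cell markers in 3 of 9 (median -0.42) and Müller glia markers in 6 of 10, with 2 risen (median -0.98). Rod markers fell in 1 of 10 cases, with a median of -0.06. Microglia and macrophage markers rose in 4 of 8 cases and endothelial markers in 3 of 7. Of 9 cone markers 1 rose and 1 fell (median -0.10). Of 3 tested astrocyte markers 2 rose and 1 fell. Neither of the 2 tested lens markers was called, and the lens sum was 1.54 to 24.0 FPKM in RA WT, 0.607 to 1.45 in OIR WT and 0.601 to 14.7 in OIR KO. Retinal pigment epithelium markers fell in 1 of 5 tested, and their sum was 56.6 to 93.2 FPKM in RA WT and 32.0 to 75.2 in OIR WT, with 57.5 to 106 in OIR KO. The part of these other cells in the amacrine values, several of which they share, was not tested.

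**Figure D5:**
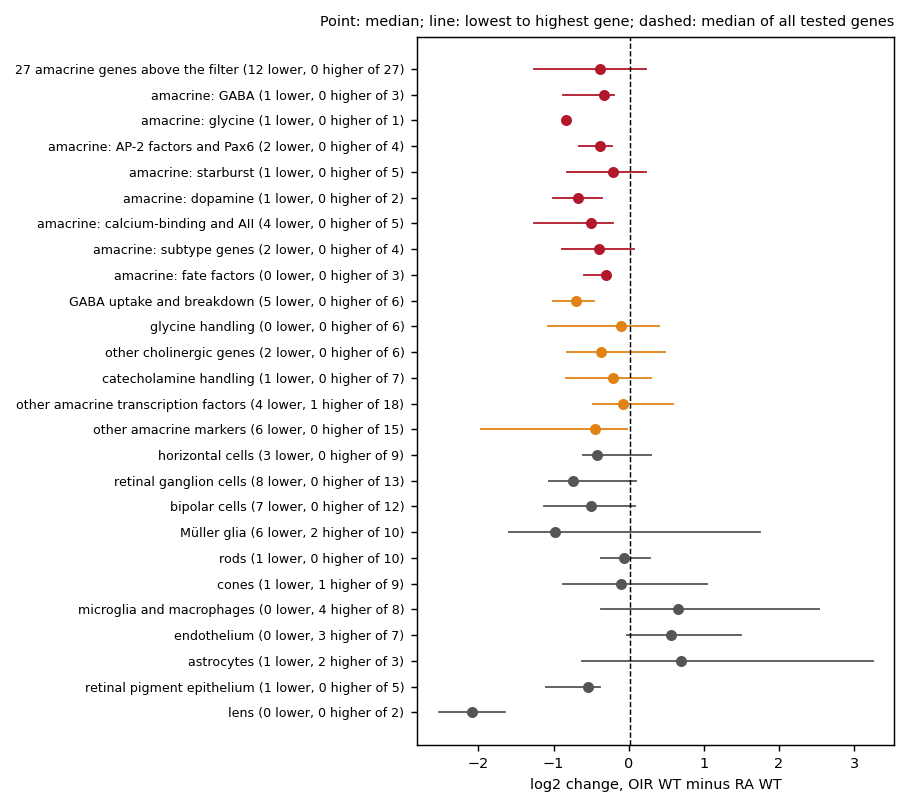
Median (point) and lowest to highest gene (line) of the log2 change of OIR WT minus RA WT (horizontal axis) for the amacrine roles, further transmitter and amacrine lists, and markers of other cells, with counts of called genes in brackets. The 27 amacrine genes have a median of -0.38, between those of rod markers (-0.06) and ganglion cell markers (-0.74).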

How the data were processed

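RNA of retinas was sequenced in 9 libraries, 3 per group. The authors deposited 1 table of FPKM values with 1 column per library, matched to samples by the label T01 to T09. HISAT2 and GRCm38 are named in the submitters' processing notes; the quantification program, annotation release, strand setting and depth were not given in the sources used here. FPKM summed to 344876 to 366536 per library, which says nothing of depth. In 4521 single-transcript genes, 17.9 to 36.9% of low values per library were within 0.02 of a whole step, so reads were not recovered and no count model or counting interval was used.

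Values were taken as log2(FPKM + 0.5) without further scaling, and genes with at least 0.5 FPKM in at least 3 libraries were kept (15678 of 25108). The model of limma 3.58.1 in R 4.3.3 had 1 mean per group and empirical Bayes moderation with trend and the robust option. It was also run on simulated data with known changes, whose outcome is not reported here. Comparisons were two-sided and adjusted by Benjamini-Hochberg over the kept genes. Genes under the filter and ratios were compared with exact permutation tests. Positions and overlaps came from GENCODE M21 (GRCm38) and promoters from RefSeq.

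The 30 genes and all lists were chosen with earlier results of these data known. Named genes were all 30 and, from further lists, at most 3 with the largest change among those called; lists of other cells are given as counts. Alternatives covered the pseudocount, filter, scaling, moderation, samples in the fit, a Y-linked covariate, a replicate block and each library left out; leaving out the paired sets of Cryaa-high or Y-negative libraries was chosen after seeing the data.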

Additional observations from a re-analysis of the deposited data

How the results depend on the processing

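In OIR WT against RA WT the number of fallen amacrine genes, 12, was 12 or 13 under both other pseudocounts, both other filters, both scalings, without trend and robust moderation, with only the 6 libraries compared, and without both Cryaa-high libraries. It was 8 with the Y-linked covariate, 10 with a replicate block, 4 to 11 with 1 library left out, and 4 without both libraries that listed Y-linked genes at 0. Of these pairs, only RA WT 1 and RA WT 2 are in the groups compared here. OIR KO 1 and OIR KO 2 enter only through the filter and the shared spread. Without RA WT 2 alone the number was 6. The median log2 change of the amacrine genes was -0.42 with the covariate and without the pair with Y-linked genes at 0. It was -0.42 to -0.36 with 1 library left out. The count of all called genes, 2503, was 1581 with the covariate, 967 without that pair, and 1039 (without OIR WT 1) to 2164 (without OIR WT 2) with 1 library left out.

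In OIR KO against RA WT, 12 amacrine genes became 7 with only the 6 libraries compared, 3 without both Cryaa-high libraries, 0 without both libraries that listed Y-linked genes at 0, and 5 to 14 with 1 library left out. All called genes, 1636, became 1081 with a replicate block, 518 and 97 without those pairs, and 697 (without RA WT 3) to 1792 (without OIR KO 3) with 1 library left out. In OIR KO against OIR WT, 0 amacrine genes were called under any alternative, and the median was -0.10 to 0.07 with 1 library left out. All called genes, 21, became 13 with the filter at 1 FPKM, without trend and robust moderation and without both libraries that listed Y-linked genes at 0, 14 and 15 with a pseudocount of 1 and without a filter, and 7 (without OIR WT 3) to 42 (without OIR KO 2) with 1 library left out.

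Whether the replicate numbers pair the libraries is not stated, and correlations gave little sign of it. Of 9 pairs of libraries with the same number, 1 had deviations from the group means that correlated above 0.1. Only 1 of 9 libraries correlated best with its own number. Weak correlations cannot show that libraries were not paired. With the number as a replicate block, 8 genes were called in OIR KO against OIR WT and 10 amacrine genes in OIR KO against RA WT. No amacrine gene that was called changed its direction under any alternative run. The cause of the lost calls was not tested; leaving out libraries also leaves fewer samples. Depth is unknown, so no counting error can be given for the lowest values (Ddc, Neurod6 and Ptf1a).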

Other observations

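Within the room-air retina the 30 genes spanned a wide range of levels per length. Calb2 was the highest at 337 ± 52.1 FPKM (SD, n = 3), followed by Pax6 (94.6 ± 6.79), Gad1 (81.7 ± 1.95), Slc6a9 (56.0 ± 6.06), Gjd2 (54.1 ± 2.86) and Slc32a1 (45.0 ± 8.09). The ranges of Slc6a9, Gjd2 and Slc32a1 overlapped, as neighbours in this order. At the low end were Th (2.62 ± 0.740), Slc18a2 (2.57 ± 0.445) and Slc5a7 (2.13 ± 0.191), then the 3 genes below the filter. In OIR WT the order of Gad1 and Slc6a9 was kept at 44.6 ± 3.96 and 31.4 ± 5.19 FPKM, while Gjd2 (38.2 ± 2.25) and Slc32a1 (35.2 ± 0.997) stood above Slc6a9 by mean.

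Of the 30 genes, 8 lie on chromosome 2, namely Gad1, Gad2, Slc32a1, Tfap2c, Pax6, Gjd2, Meis2 and Ptf1a. Those tested ranged from Gad1 (log2 -0.87) to Meis2 (log2 0.07) in OIR WT against RA WT. The remaining ratios computed were Slc6a9/Slc32a1, at 1.26 ± 0.10 in RA WT and 0.891 ± 0.140 in OIR WT, Tfap2c/Tfap2a, at 0.541 ± 0.0337 and 0.387 ± 0.0150, and Calb2/Gjd2, at 6.21 ± 0.646 and 4.68 ± 0.836 (SD, n = 3). The first 2 did not overlap between these groups and the third did.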
